A study of Homo sapiens with 18 samples.

Results

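Open chromatin was compared between ALDH-high PC9 cells given 1 µM erlotinib for 12 h and ALDH-high PC9 cells given the solvent DMSO for the same time. The comparison used 6 of the series' 18 ATAC-seq libraries, 3 per treatment, lettered a, b and c. PC9 is an established human non-small cell lung cancer line whose growth depends on mutant EGFR. After treatment the cells were stained with Aldefluor and sorted by flow cytometry, and the ALDH-high fraction is described here. The other 12 libraries are ALDH-low cells from the same treatments (12 h of DMSO or of 1 µM erlotinib, 3 libraries each), PC9 cells labelled DMSO with no sort named (3 libraries), and drug-tolerant persisters, or DTPs, the PC9 cells that survived 8 days of 1 µM erlotinib (3 libraries). All cells were frozen and thawed before the assay. The labels do not say whether libraries a, b and c came from separate cultures, so each p-value below measures only the spread between libraries. Because sorting followed treatment, the ALDH-high fractions of the treatments may not hold the same cells, and the high and low fractions of a treatment may share a culture. The peak lists carry no measure of ALDH activity, and the ALDH-high label was not checked here.

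Erlotinib blocks the kinase of EGFR, the receptor for epidermal growth factor, and PC9 cells are a standard model of response to it. A small share of such cells survives the drug in a slow-cycling, reversible state, the drug-tolerant persister state. Aldehyde dehydrogenases oxidise reactive aldehydes, and Aldefluor, a fluorescent substrate of these enzymes, is used to sort cells by that activity, which has been linked to drug tolerance. ATAC-seq cuts accessible DNA with the Tn5 transposase, so that promoters, enhancers and other open sites appear as peaks of sequenced fragments.

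Each library was available as a list of peaks with a score per peak, as the authors' peak caller gave it. Every one of the 6 lists began at a score of 70, and 3 to 7 peaks per list lay outside chromosomes 1 to 22 and X and were set aside. Read depth is unknown from these lists, so a missing peak means only that no peak was called. To set lists of different length side by side, each comparison was repeated with the 26225 highest-scoring peaks of every library, which is the length of the shortest list of the series; these are called lists of equal size below. No sample pair among the 6 shared more than 0.0230% of identical peaks, so the lists were distinct.

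More peaks were called after erlotinib. The DMSO libraries a, b and c held 32819, 30336 and 30476 peaks, and the erlotinib libraries held 40710, 34317 and 40600. Erlotinib library b was the shortest of its group, yet the groups did not overlap. The means were 31210.3 ± 1395 (SD, n = 3) for DMSO and 38542 ± 3660 (SD, n = 3) for erlotinib, a difference of 7332 peaks or 23.5% (exact two-sided permutation test, p = 0.1, the smallest p that 3 libraries against 3 can give). The bases covered by peaks were 34.0 ± 1.55 Mb with DMSO and 43.1 ± 3.95 Mb with erlotinib (exact permutation test, p = 0.1). In lists of equal size the same measure was 30.2 ± 0.467 Mb and 33.1 ± 0.893 Mb, so the difference of 9.04 Mb became 2.88 Mb, with the groups still apart (exact permutation test, p = 0.1). The median peak score was 149.9 ± 2.89 with DMSO and 168 ± 6.63 with erlotinib, and the median peak width was 983 ± 4.04 bp and 1000.3 ± 12.5 bp. Scores depend on depth, and how far depth moves the number of peaks was not tested.

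**Figure D1:**
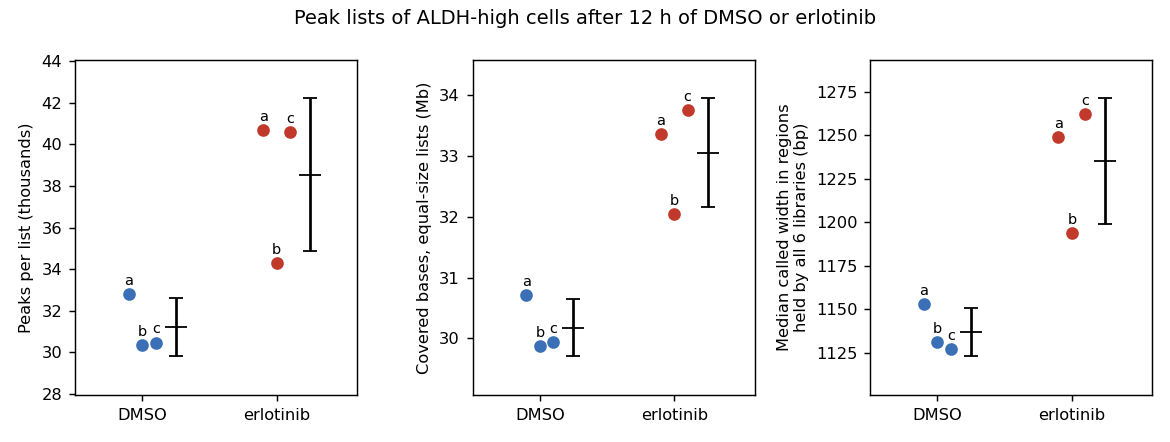
Each point is a library (a, b, c) and the bars show the group mean ± SD (n = 3): peaks per list in units of 1000 (left), bases covered in lists of equal size in Mb (middle), and median called width in regions held by all 6 libraries in bp (right); the axes do not start at 0. In each panel the 3 erlotinib libraries lie above the 3 DMSO libraries, and erlotinib library b is the lowest of its group.

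Merging peaks that shared at least 1 bp over the 6 lists gave 57094 regions. A region held by a library is one in which that library has a peak. Of these regions 2583 were held by all 3 erlotinib libraries and by no DMSO library, and are called gained; they were 4.52% of all regions. The reverse pattern, called lost, was found for 572 regions, 1% of all. Another 19173 regions (33.6%) were held by all 6 libraries and are called common. Among the regions that separated the treatments 81.9% were gains. In lists of equal size, with 40752 regions, 1224 were gained (3% of all) and 988 lost (2.42% of all), and gains were 55.3% of the regions that separated. Gains outnumbered losses under both list lengths, and by less at equal size. In looser patterns at equal size the order turned. There 1695 regions were held by 2 DMSO libraries and no erlotinib library, against 1514 for the reverse. Held by 1 DMSO library and no erlotinib library were 5058 regions, against 3711 for the reverse.

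**Figure D2:**
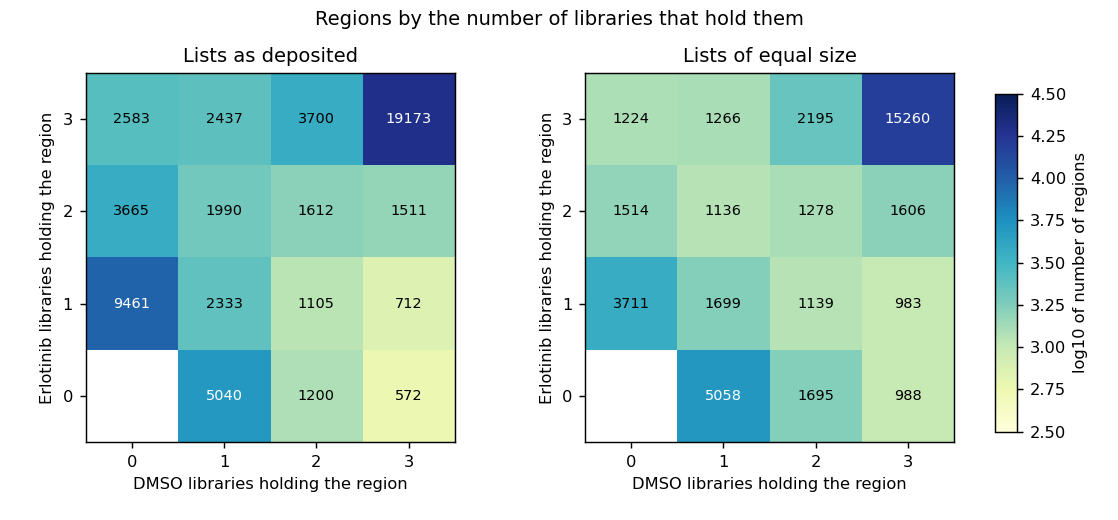
The colour of each cell gives the number of regions, as log10, held by 0 to 3 erlotinib libraries (vertical axis) and 0 to 3 DMSO libraries (horizontal axis), with the number printed inside. Gained regions are the top left cell (2583 as deposited, 1224 at equal size) and lost regions the bottom right cell (572 and 988); the top right cell holds the common regions.

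Many regions lay just outside these patterns. Besides the 2583 gained regions, 2437 were held by all 3 erlotinib libraries and 1 DMSO library, and 3665 by 2 erlotinib libraries and no DMSO library. Erlotinib library b alone was missing in 2063 of those 3665, against 839 for library a and 763 for library c. Leaving out erlotinib library b gave 4652 gained regions, and leaving out any other library gave 3275 to 3643. On the lost side, 712 regions were held by all 3 DMSO libraries and 1 erlotinib library, and 1200 by 2 DMSO libraries and no erlotinib library. The lost count was 891 without DMSO library a, 1029 without b, 1003 without c, 872 without erlotinib library a, 702 without b and 858 without c; dropping a library loosens the rule, so every count is larger. A stricter count kept only regions in the lists of equal size of all 3 libraries of a treatment that were absent from the full lists of the other treatment: 776 gains and 297 losses met it, so that gains were 72.3% (a setting chosen after seeing the data). This rule is uneven, because the full erlotinib lists are longer than the full DMSO lists. It kept 63.4% of the 1224 gains at equal size and 30.1% of the 988 losses, so list length again enters the 72.3%.

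Gained and lost regions were weaker peaks than common ones. Each peak was placed as a percentile of score within its own list. The weakest of the 3 erlotinib peaks had a median of 20.2 for gained and 64.4 for common regions. The weakest of the 3 DMSO peaks had a median of 16.7 for lost regions. In DMSO libraries a, b and c the median percentile was 34.3, 32.3 and 28.9 for lost and 69.7, 67.1 and 67.4 for common regions. Only 271 gained regions (10.5%) and 32 lost regions (5.59%) lay in the upper part of all 3 of their lists, at or above percentile 50. The median score of gained regions was 134, 112 and 134 in erlotinib libraries a, b and c, and that of lost regions 116, 110.4 and 105 in DMSO libraries a, b and c. Median widths were 1042 bp for gained, 981 bp for lost, 1496 bp for common and 1049 bp for all regions. Membership of the gained and lost sets was decided by the same peak calls, so these values describe the sets and were not tested.

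The gained regions were spread over the genome rather than gathered on a few chromosomes. Their share of a chromosome's regions ran from 3.45% on chromosome 12 to 5.38% on chromosome 15. At equal size it ran from 1.98% on chromosome 19 to 3.96% on chromosome 13, so the order of chromosomes depended on list length. Lost regions numbered from 3 on chromosome 22 to 68 on chromosome 1. Their share of a chromosome's regions ran from 0.309% on chromosome 22 to 1.43% on chromosome 21, where it rested on 9 regions. The order of chromosomes by lost share changed with list length as well. By cytogenetic band (hg19), 6q21 held the most gained regions, 20 of its 278, followed by 2p21 with 18 of 265 and 7q34 with 18 of 177. Lost regions were most numerous in 1q41 (6 of 219) and 6q21 (6 of 278). Dark-staining bands, which are gene-poor, held 20.1% of gained, 25.9% of lost and 17.4% of common regions, beside 19.9% of all regions and 29.8% of the genome's bases.

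Gained regions sometimes lay close together. Another gained region lay within 50 kb of 18.7% of them, and 25 chains of at least 3 gained regions were found with every step under that distance. The longest chain had 5 gained regions among 13 regions in 99.0 kb of 3q29 (chr3:193530583-193629564). Of the 5, 3 were held by all 3 ALDH-low erlotinib libraries, 3 by all DTP libraries and none by all PC9 libraries. For all regions these shares were 46.1%, 53.1% and 52.4%. A chain of 4 lay in each of 15q21.3 (chr15:58797917-58897332), 2p23.3 (chr2:26862860-26987910) and 6p25.2 (chr6:2476356-2590107). The lost regions formed 1 such chain, of 3 regions, in 13q22.1 (chr13:73877843-73940547). With 572 lost and 2583 gained regions, the numbers of chains cannot be set against each other. A gained region lay within 50 kb of 18.2% of lost regions and of 16.4% of common regions. These shares were near the 18.7% of gained regions, so such closeness was not particular to gains.

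The strongest gained regions stood high in all 3 erlotinib lists with no call in any DMSO list. Ordered by the percentile in the weakest of the 3 lists, the first was chr11:111198175-111199550 in 11q23.1, with scores of 793, 605 and 603 in erlotinib libraries a, b and c, which are percentiles 97.9, 97.2 and 94.9. Next was chr3:194233090-194234472 in 3q29, at percentiles 92.9, 93.2 and 93.1, and then chr11:86710681-86711920 in 11q14.2 at 96.5, 94.3 and 92.3. The 11q23.1 region was also called in 1 ALDH-low DMSO and 2 PC9 libraries. The 3q29 and 11q14.2 regions were each called in all 3 ALDH-low erlotinib and all 3 DTP libraries and in no ALDH-low DMSO or PC9 library. The fourth was chr14:102562675-102564839 in 14q32.31, at percentiles 93.6, 91.3 and 95.6, called in 2 PC9 libraries as well as all 3 DTP libraries. The fifth was chr2:223335045-223336604 in 2q36.1, whose percentile of 98.5 in library c stood above 87.9 in a and 90.8 in b; it too was called in 2 PC9 libraries.

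Of the 12 gained regions with the highest weakest percentile, all were called in all 3 ALDH-low erlotinib libraries and 9 in all 3 DTP libraries. Of all regions, common ones included, 46.1% and 53.1% had these calls, and the 12 were picked for high scores. Only 1 of the 12 was called in all PC9 libraries, chr6:147226032-147227411 in 6q24.3, while 6 were called in no PC9 library. For all regions these shares were 52.4% and 26.5%. An exception on the persister side was chr15:90310189-90311770 in 15q26.1, at percentiles 83.5, 89.0 and 89.4, which no DTP and no PC9 library held. An exception on the ALDH-low side was chr5:170171146-170173724 in 5q35.1, which was called in all 3 ALDH-low DMSO libraries although in no ALDH-high DMSO library. The widest gained region, 5503 bp in 7p22.1 (chr7:5464873-5470375), was weak, at percentiles 14.0, 4.60 and 50.4. A wide region of greater strength was chr1:156661199-156664838 in 1q23.1, 3640 bp, at percentiles 71.1, 73.0 and 68.4, held by all 3 ALDH-low erlotinib and all 3 DTP libraries.

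Lost regions included fewer strong peaks. The first was chr7:148930228-148931774 in 7q36.1, with scores of 378, 383 and 424 in DMSO libraries a, b and c, which are percentiles 89.5, 91.7 and 93.3. Next were chrX:102892564-102893463 in Xq22.2, at percentiles 88.4, 81.6 and 80.8, and chr5:127563256-127564425 in 5q23.3, at 78.0, 81.5 and 94.1. The last of the 12 lost regions in this order stood at percentile 62.5 in its weakest list, where the last of the 12 gained regions stood at 80.4. The 12 were taken from 572 lost but from 2583 gained regions, so these places are not alike. All 12 top lost regions were called in all 3 PC9 libraries, 9 in all 3 ALDH-low DMSO libraries and none in all 3 ALDH-low erlotinib libraries. Of all regions, common ones included, 52.4%, 31.6% and 46.1% had these calls, and these 12 too were picked for high scores. DTP libraries gave a mixed picture, with 6 of the 12 called in all 3 of them, among these 5q23.3, and 12p13.33 (chr12:291017-292439) called in only 1. All 3 DTP libraries held 53.1% of all regions.

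**Figure D3:**
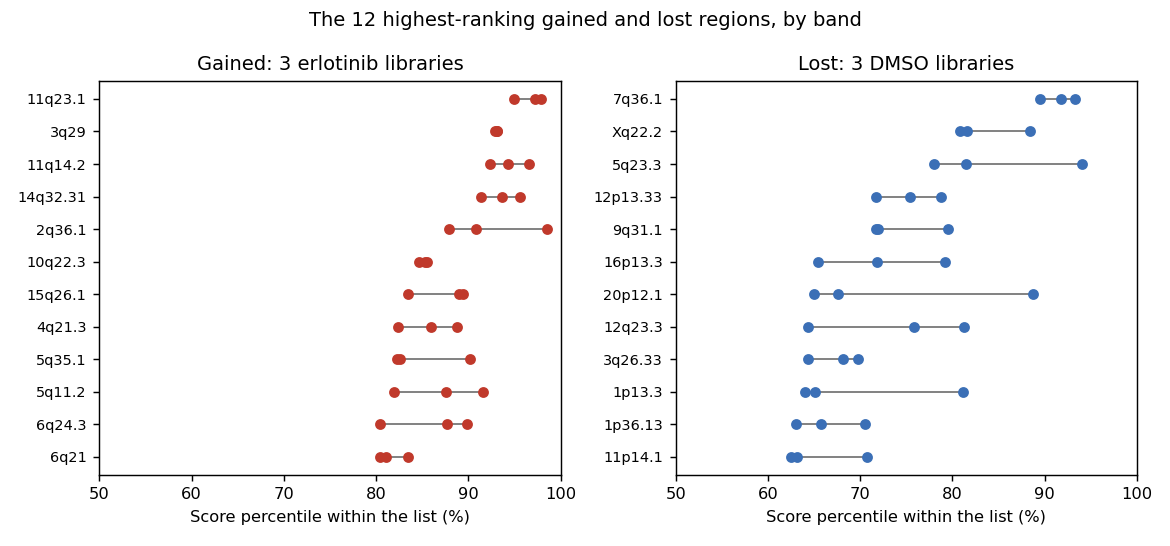
For each of the 12 gained (left) and 12 lost (right) regions with the highest weakest percentile, labelled by band, the 3 points are the score percentiles (%) within the 3 lists that hold the region and the line spans them; the axis starts at 50. The gained regions run from 80.4 upward, and the lost regions from 62.5 upward.

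Regions present under both treatments were called wider after erlotinib. In the 19173 common regions the median called width was 1153, 1131 and 1127 bp in the DMSO libraries and 1249, 1194 and 1262 bp in the erlotinib libraries. The groups did not overlap: 1137 ± 14.0 bp against 1235 ± 36.1 bp (SD, n = 3), a difference of 98 bp (exact two-sided permutation test, p = 0.1). Leaving out each library in turn gave differences of 83.7 to 112 bp. Called width depends on depth as well as on the extent of open chromatin, and these lists cannot tell the contributions apart.

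Peaks were also ordered differently within the lists, which was compared in lists of the same length. In the lists of equal size, 15264 regions were held by all 6 libraries and could be ranked by score, with rank 1 the highest. In 1827 of them (12%) every erlotinib rank was higher than every DMSO rank, and in 1815 (11.9%) every DMSO rank was higher. Because ranks in lists of the same length are centred, a near balance of the directions follows from the ranking itself. The largest upward shift in mean rank was at chr6:120038026-120039870 in 6q22.31, which ranked 25735, 22349 and 24872 under DMSO and 5336, 3568 and 4357 after erlotinib. At chr10:62796472-62797946 in 10q21.2 the ranks went from 23475, 20762 and 10548 to 646, 1439 and 750, placing it near the top of every erlotinib list. Other large upward shifts lay in 3p25.3 (chr3:8699492-8700915), 12p13.32 (chr12:3423836-3425402), 11q24.1 (chr11:123308113-123309889) and 2q14.2 (chr2:121002262-121003815). These regions were picked among those in which the ranks of the treatments did not overlap.

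Downward shifts of the same size were found. The largest was at chr20:46506681-46508097 in 20q13.13, which ranked 1242, 2486 and 2376 under DMSO and 25347, 20828 and 21720 after erlotinib. At chr5:17180738-17182212 in 5p15.1 the DMSO ranks of 2008, 1983 and 2601 stood against 24214, 21645 and 19756. The region chr3:183642408-183643610 in 3q27.1, ranked 2784, 944 and 2040 under DMSO and 18186, 21803 and 20258 after erlotinib, and no DTP library held it. Dark-staining bands held 21.4% of the regions that moved down, 16.1% of those that moved up and 17.6% of all those ranked.

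Whether the same regions differed by treatment elsewhere was looked at in the other 12 libraries, which played no part in choosing them. The ALDH-low fractions may share cultures with the ALDH-high fractions, so they may not be independent of the lists that defined the regions. The mean over both pairs below joins 12 h in sorted ALDH-low cells with 8 days in DTPs, and its p-value too measures only the spread between libraries. In lists of equal size, ALDH-low DMSO libraries held 10.1 ± 0.0774% of the 2583 gained regions and ALDH-low erlotinib libraries 50.2 ± 1.13% (SD, n = 3 each). PC9 libraries held 7.72 ± 0.526% of them and DTP libraries 32.5 ± 0.220%. No erlotinib-treated library overlapped its vehicle group in either pair. The differences were 40.1 points for the ALDH-low cells and 24.7 points for DTPs against PC9 (exact two-sided permutation tests, p = 0.1 each). Taken over both pairs, with labels exchanged only within a pair, the mean difference was 32.4 points (exact two-sided permutation test, p = 0.005, the smallest that these 400 assignments allow). With the other libraries' lists as deposited the ALDH-low difference was 63.9 points, where all regions differed by 15.2 points. For DTPs against PC9 it was then 35.8 points, where all regions differed by 1.06 points and the PC9 share of gained regions was 28.6%. The mean over both pairs was 49.8 points with these lists.

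Lost regions behaved the opposite way. ALDH-low DMSO libraries held 52.6 ± 1.05% of the 572 lost regions and ALDH-low erlotinib libraries 3.09 ± 0.728%, a difference of -49.5 points. For PC9 and DTP libraries the shares were 72.4 ± 0.364% and 17.8 ± 1.67%, a difference of -54.6 points (exact permutation tests, p = 0.1 each). Over both pairs the mean difference was -52.0 points (exact two-sided permutation test, p = 0.005). With the lists as deposited, ALDH-low erlotinib libraries held 11.8% and DTP libraries 47.5% of the lost regions, and the differences were -41.2 points, -44.6 points and, over both pairs, -42.9 points. Common regions differed by -2.60 points (exact permutation test, p = 0.005) and all 57094 regions by -0.239 points at equal size (exact permutation test, p = 0.595). Gained regions of ALDH-high cells were thus held more often by erlotinib-treated libraries in both other pairs, and lost regions less often.

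**Figure D4:**
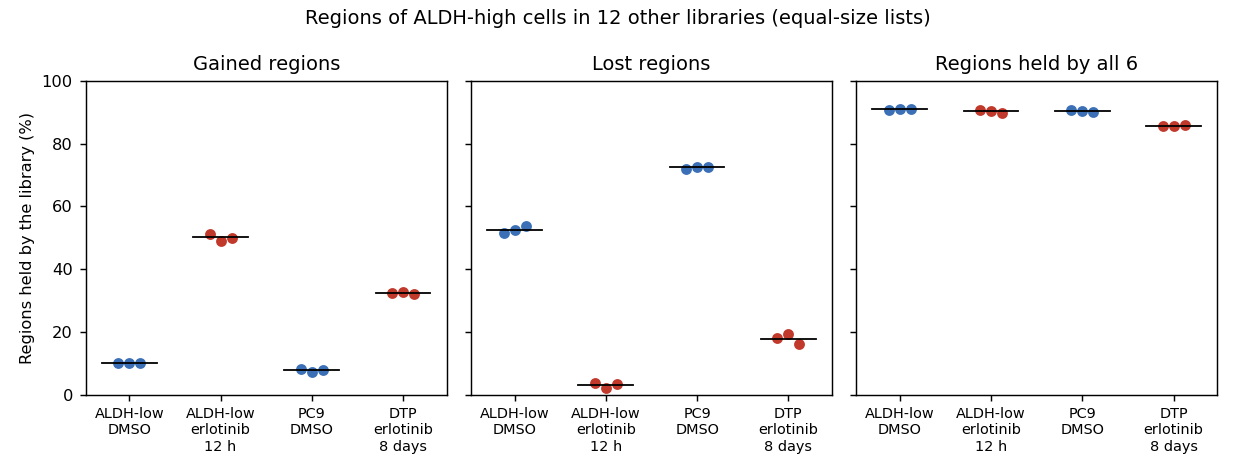
Each point is the percentage of the gained (left), lost (middle) or common (right) regions held by a library's list of equal size, with a line at the group mean; red points are erlotinib-treated and blue points vehicle libraries. Gained regions are held by about 50.2% in ALDH-low erlotinib and 32.5% in DTP libraries against 10.1% and 7.72% in their vehicle groups, lost regions show the reverse order, and group means for common regions lie between 90.3% and 90.9%, with DTP libraries at 85.8%.

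The counts below use the other libraries' full lists. The shares of all regions given beside them include the common regions, which the rules for gained and lost regions leave out. Of common regions, 91.7% were called in all 3 ALDH-low erlotinib, 95.7% in all 3 PC9 and 93.4% in all 3 DTP libraries. Of the 2583 gained regions, 1363 (52.8%) were called in all 3 ALDH-low erlotinib libraries and 191 (7.39%) in none of them, beside 46.1% and 26.6% of all regions. The pattern of 3 ALDH-low erlotinib libraries and no ALDH-low DMSO library, which is a gain by the same rule, held for 1006 gained regions (38.9%), beside 6.10% of all regions. When the ALDH-low libraries were merged on their own, 3620 regions were gained there, and 27.8% of these met a gained region of ALDH-high cells. For lost regions the shared number was 104, which is 18.2% of the 572 lost in ALDH-high and 21.9% of the 474 lost in ALDH-low cells; 0.814% of all regions had that pattern. The shared part was larger among stronger members. Among the gained regions divided into 4 classes by weakest percentile, all 3 ALDH-low erlotinib libraries held 29.3% of the weakest class, 42.1% and 55.1% of the next classes and 84.7% of the strongest.

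The strict set of 776 gains gave 464 regions (59.8%) that were also gained in ALDH-low cells, beside 6.10% of all regions. No ALDH-low erlotinib library held 8 of the 776 (1.03%), beside 26.6% of all regions. Of the 297 strict losses, 77 (25.9%) were lost in ALDH-low cells as well, beside 0.814% of all regions. The strict sets were picked for high-ranking peaks, which all regions were not. The 191 gained regions absent from every ALDH-low erlotinib list were mostly weak, with a median weakest percentile of 9.44. The strongest of these was chr1:218054309-218055588 in 1q41, at percentiles 63.4, 67.4 and 60.2 in erlotinib libraries a, b and c. All 3 DTP libraries held it, and neither PC9 nor ALDH-low DMSO libraries did. The next, chr2:38237863-38238820 in 2p22.2, stood at percentiles 58.1, 55.3 and 56.2 and was held by all 3 DTP libraries and 1 PC9 library. The 6 strongest of this kind were all held by all 3 DTP libraries, as were 82 of the 191 (42.9%), beside 53.1% of all regions.

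Against 8 days of drug, 1256 gained regions (48.6%) were called in all 3 DTP libraries and 528 (20.4%) in none. For all regions the shares were 53.1% and 25%, but these include the common regions, 93.4% of which all 3 DTP libraries held. The rule for gains leaves common regions out, so the shares of gained and of all regions cannot be set against each other directly. In the strongest class 66.7% were held by all 3 DTP libraries and in the weakest 35.9%, whereas the share held by all 3 PC9 libraries was 12.1% and 13%. A call in every DTP list but no PC9 list, the same rule as for a gain, was found for 597 (23.1%), beside 4.11% of all regions. DTP and PC9 libraries merged on their own gave 4473 gained regions, of which 13.4% met a gained region of ALDH-high cells. The strongest gained regions of this kind beyond 3q29, 11q14.2, 4q21.3 and 6q21 were chr3:97776344-97777934 in 3q11.2, at percentiles 84.8, 79.3 and 85.0, and chr1:17913949-17915529 in 1p36.13, at 82.1, 79.2 and 80.4. Both were also called in all 3 ALDH-low erlotinib libraries and no ALDH-low DMSO library.

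Some gains at 12 h were not called at 8 days. Besides the 15q26.1 region, the strongest that no DTP library held were chr2:47197388-47198700 in 2p21, at percentiles 78.3, 80.3 and 70.6, and chr10:69885195-69886462 in 10q21.3, at 85.3, 69.2 and 78.7. All 6 of the strongest regions of this kind were called in all 3 ALDH-low erlotinib and no ALDH-low DMSO library, and 5 of the 6 in no PC9 library. Of all regions 6.10% and 26.5% had these patterns. Another group of gains was also called in PC9 cells without erlotinib: 335 gained regions (13%) were held by all 3 PC9 libraries, beside 52.4% of all regions. The 52.4% includes the common regions, which cannot be gains and 95.7% of which all 3 PC9 libraries held. Examples are chr14:65105578-65106766 in 14q23.3, at percentiles 80.2, 73.5 and 75.3, and chr15:42130160-42131305 in 15q15.1, at 74.2, 77.7 and 73.1. Neither was called in an ALDH-high DMSO library, the first was called in no ALDH-low DMSO library and the other in 1.

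Most lost regions were also called in the PC9 libraries without erlotinib. All 3 PC9 libraries held 485 of the 572 (84.8%), beside 52.4% of all regions, and in the strongest of 4 classes 98.6%. All 3 DTP libraries held 172 (30.1%), beside 53.1% of all regions, and no DTP library held 195 (34.1%), beside 25%. The common regions, which cannot be lost, raise the 53.1% and lower the 25%. All 3 DTP libraries held 93.4% of them and no DTP library held 1.20%. Whether lost regions were called less often in DTPs than other regions that are not common was not tested. Loss by the same rule in DTPs, with all PC9 and no DTP library, was found for 150 (26.2%), beside 3.31% of all regions. Among lost regions called in no ALDH-low DMSO library, the strongest was chr2:20365686-20367094 in 2p24.1, at percentiles 68.5, 47.3 and 49.9, held by all 3 PC9 and 2 DTP libraries. A weaker one, chr5:167905984-167906891 in 5q34, at percentiles 41.1, 27.7 and 51.2, was held by all 3 PC9 libraries and no DTP library.

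A treatment pattern that ran through the whole series was found for few regions. Of the gained regions 323 (12.5%) were called in all 6 other erlotinib-treated libraries and in none of the 6 other vehicle libraries, beside 1.05% of all regions. Of the lost regions 26 (4.55%) showed the reverse, beside 0.121% of all regions. In no other library of the series were 23 gained regions (0.89%) called, beside 9.47% of all regions.

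Rank shifts within common regions were followed in the other libraries in the same way. Of the 1827 regions that ranked higher after erlotinib, 1512 could be ranked in all ALDH-low libraries, and 1246 of these (82.4%) had the higher mean rank after erlotinib there, beside 51.8% of all those ranked. Of the 1815 that ranked lower, 279 of 1432 (19.5%) had the higher mean rank after erlotinib. In DTPs against PC9 the shares were 956 of 1462 (65.4%) and 424 of 1501 (28.2%), beside 51.4% of all. The median rank of the upward group was 6315, 6376.5 and 6227.5 in the 3 DTP libraries and 8309.5, 7991.5 and 8159.5 in the 3 PC9 libraries, which do not overlap.

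Whole lists were compared by the Jaccard index, the bases covered in both lists divided by the bases covered in either. Within the treatments the mean was 0.604 and between them 0.532, a difference of 0.0723 (exact two-sided permutation test, p = 0.1). At equal size the values were 0.619 and 0.551. At equal size the ALDH-high erlotinib lists had indices of 0.633 to 0.649 with each other and a mean of 0.626 with the ALDH-low erlotinib lists, above their mean of 0.551 with ALDH-high DMSO lists.

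Each ALDH-high library was also set against the parental and persister lists. At equal size the mean Jaccard index with DTP minus that with PC9 was -0.0734, -0.0783 and -0.0737 in the DMSO libraries and 0.0172, 0.0160 and 0.0207 in the erlotinib libraries. After DMSO every list was closer to PC9, and after 12 h of erlotinib every list was slightly closer to DTP. The difference between the treatments was 0.0931 (exact two-sided permutation test, p = 0.1; this measure was chosen after seeing the data). Their mean index with DTP, 0.539, stayed below that with ALDH-low erlotinib lists.

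**Figure D5:**
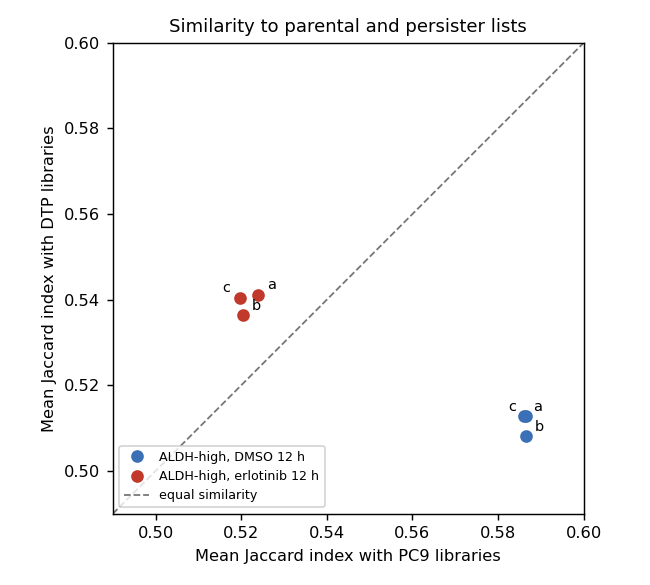
Each point is an ALDH-high library placed by its mean Jaccard index with the 3 PC9 lists (horizontal) and with the 3 DTP lists (vertical), at equal list size; the dashed line marks equal similarity and the axes do not start at 0. The 3 erlotinib libraries lie above the line and the 3 DMSO libraries below it.

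The size of the response was compared with that of ALDH-low cells by permuting treatment labels within each fraction. Erlotinib minus DMSO was 7332 peaks in ALDH-high and 10227 in ALDH-low cells, a difference of -2895 (exact two-sided permutation test, p = 0.485). For covered bases it was 9.04 Mb and 12.5 Mb, a difference of -3.47 Mb (exact permutation test, p = 0.42), and for the median score 18.2 and 28.6, a difference of -10.3 (exact permutation test, p = 0.11). These tests did not separate the fractions, and a p above the threshold does not show that they responded alike.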

How the data were processed

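ATAC-seq peak lists of 18 PC9 libraries, 3 in each of 6 groups, were used as deposited. The authors aligned reads with BWA to hg19 and called peaks with MACS 1.4.2, per the submitters' processing notes; whether each library was called alone, and any Tn5 shift, duplicate removal or blacklist, is not given in the sources used here. The deposited score of a peak has no stated scale, and served here mainly to order or threshold peaks of the same list. Where scores or their medians are set side by side between lists, they are as deposited and not adjusted for depth. No counts were used, so depth and its error are unknown.

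After sequences other than chromosomes 1 to 22 and X were dropped, peaks sharing 1 bp were merged. Percentiles and ranks are within a list. Tests were exact two-sided permutations of library labels, with a threshold of 0.05 that 3 against 3 cannot reach. Named regions are the 12 gained and 12 lost with the highest weakest percentile, and the highest 6 of subsets (4 for width) or by rank shift. Members and lists were chosen with earlier results of these data known. Alternatives were a score minimum of 100, a 50% cover rule, all sequences, equal list sizes, a replicate block and leaving out each library. Code was tested on simulated data (Python 3.11.15, numpy 2.4.6, scipy 1.17.1; bands from circlize 0.4.16 in R 4.3.3). Gene names, gene lists and sequence features need an hg19 genome and were not analysed here.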

Additional observations from a re-analysis of the deposited data

How the results depend on the processing

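Over 182 alternative values of 12 results, none reversed and none of the 10 tested results crossed its threshold, which only the 2 tests over both pairs could pass. The counts were the exception, with 9 values that moved. Gained regions, 2583, became 1224 in lists of equal size, 776 with strong peaks on the one side and full lists on the other, and 3275 to 4652 when a library was left out, the highest without erlotinib library b. Lost regions, 572, became 988, 297 and 702 to 1029, the highest without DMSO library b. A score of at least 100 gave 2328 gains and 405 losses, and the 50% cover rule 2790 and 590. With the letter as a replicate block, the difference over both other pairs kept its 32.4 points for gains and -52.0 for losses (exact permutation test, p = 0.03125), and every comparison of 3 pairs had p = 0.25, the smallest possible; same-letter libraries did not deviate together (correlations -0.00669, -0.000710 and -0.00478 over regions), so the letters were not taken as pairs. Missing depth limits all of these counts.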

Other observations

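The highest-scoring peak of erlotinib library a, singled out after its values were seen, was a gained region of 10p12.1, chr10:26692418-26692797, 380 bp wide. Its score was 3035 in library a, 157 in b and 747 in c, so the libraries of 1 treatment differed widely. The region was called in all 3 ALDH-low erlotinib libraries, with scores of 1102, 1566 and 765, and in no ALDH-high DMSO, ALDH-low DMSO, PC9 or DTP library. The highest peaks of the other lists lay in regions called throughout the series. That of DMSO library b was chr7:55200125-55202333 in 7p11.2, the band that holds EGFR, with scores of 1573, 1594 and 1467 under DMSO and 1841, 1144 and 1566 after erlotinib, which overlap.

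Some bands are known to hold genes of EGFR signalling or of aldehyde metabolism. They were chosen after seeing the data, a band holds many genes, and no region was assigned to a gene. In 7p11.2 (EGFR), 9 of 85 regions were gained (10.6%) and none lost. In 13q31.1, the band of SPRY2, a feedback inhibitor of receptor signalling, 7 of 68 were gained (10.3%) and none lost. In 7q31.2, the band of MET, a receptor whose amplification is a known route of erlotinib resistance, 4 of 55 were gained (7.27%) and 2 lost (3.64%). In 9q21.13, the band of ALDH1A1, an enzyme read by Aldefluor, 7 of 109 were gained (6.42%). In 12q21.33, the band of DUSP6, a phosphatase of ERK, 1 of 48 was gained (2.08%). Across all regions 4.52% were gained and 1% lost, so a band of this size with none lost says little. The gained shares say little as well, because bands not picked for a gene ran as high or far lower. Gained were 13 of 105 regions in 7p12.3 (12.4%) and 9 of 75 in 1p32.1 (12%), but 1 of 92 in 7p13 (1.09%).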
